A study of Oryctolagus cuniculus with 16 samples.

Results

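Versican, decorin and osteopontin are secreted molecules of the extracellular matrix, encoded by VCAN, DCN and SPP1. All probes on a rabbit array that could be given 1 of these 3 gene names were followed in vein tissue of the sham surgery group and in vein grafts taken on day 1 and day 7. The names came from the transcript accession of each probe, and they were found for 13 of 43603 probes. Of these, 6 were VCAN probes, 6 were DCN probes and 1 was an SPP1 probe, and the 3 genes stood among 2121 genes that could be named. Tests covered each probe that cleared the background on all arrays of 1 or more groups, as the scanner software judged it, and this held for all 13 and for 35761 of all probes.

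Versican is a large chondroitin sulfate proteoglycan that binds hyaluronan and fills the provisional matrix of an injured vessel wall, where it is made largely by smooth muscle cells and fibroblasts. Decorin is a small leucine-rich proteoglycan that binds collagen fibrils and transforming growth factor beta, and it is typical of the fibroblasts of the adventitia. Osteopontin is a phosphorylated glycoprotein that binds integrins and CD44, and macrophages as well as smooth muscle cells of injured vessels can secrete it.

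The arrays comprised 6 of day 1 grafts, 6 of day 7 grafts and 4 of the sham surgery group, all from male rabbits, each hybridized with Cy3-labelled total RNA. The labels do not tie an array to an animal, and they give neither strain nor age. Arrays at the same position of the 3 graft scans differed by less than the spread between spots of 1 probe on a single array, and they shared 33.3% to 88.2% of the rejected spots of the array with fewer of them, where the scanner software had called them non-uniform or outlying. They were therefore averaged, which left 2 samples of day 1, 2 of day 7 and 4 of sham surgery. The p-values measure only the spread between these samples. Graft arrays of a day at different positions differed by 1.25 to 1.41 times the variance expected from spots. Samples of a day thus differed little more than spots did, and a small standard error does not measure the spread between animals. The sham surgery arrays were scanned apart from the grafts, so that scan and surgery cannot be told apart. They also fell into pairs, with samples 1 and 2 standing apart from samples 3 and 4. The variance was 1.84 and 1.21 times that expected from spots within the pairs, and 13.9 to 14.8 times across them. The software found 32972 to 36317 probes of an array well above background, and the number of arrays limits the precision.

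All levels below are quantile-normalized log2 signals of 1 probe. Levels of different probes do not compare amounts of RNA. A probe was called when its Benjamini-Hochberg adjusted p in limma was below 0.05 and its log2 fold change was at least 1 in size. The arrays were of whole tissue, in which fewer cells of a type and less RNA per cell cannot be told apart. All 13 probes were well above background on all 16 arrays, and none was saturated or rejected on any of them.

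VCAN was higher on day 7 than in both other groups by its 5 bright probes, with no call between day 1 and sham surgery. Its sixth probe, A_04_P013241, was higher on both days than after sham surgery. DCN was lower on day 1 by all 6 probes, and 5 of them rose again by day 7. SPP1 was highest on day 1 and was lower on day 7, where it overlapped with the sham surgery samples. The plot of all probes on all arrays shows these courses.

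**Figure D1:**
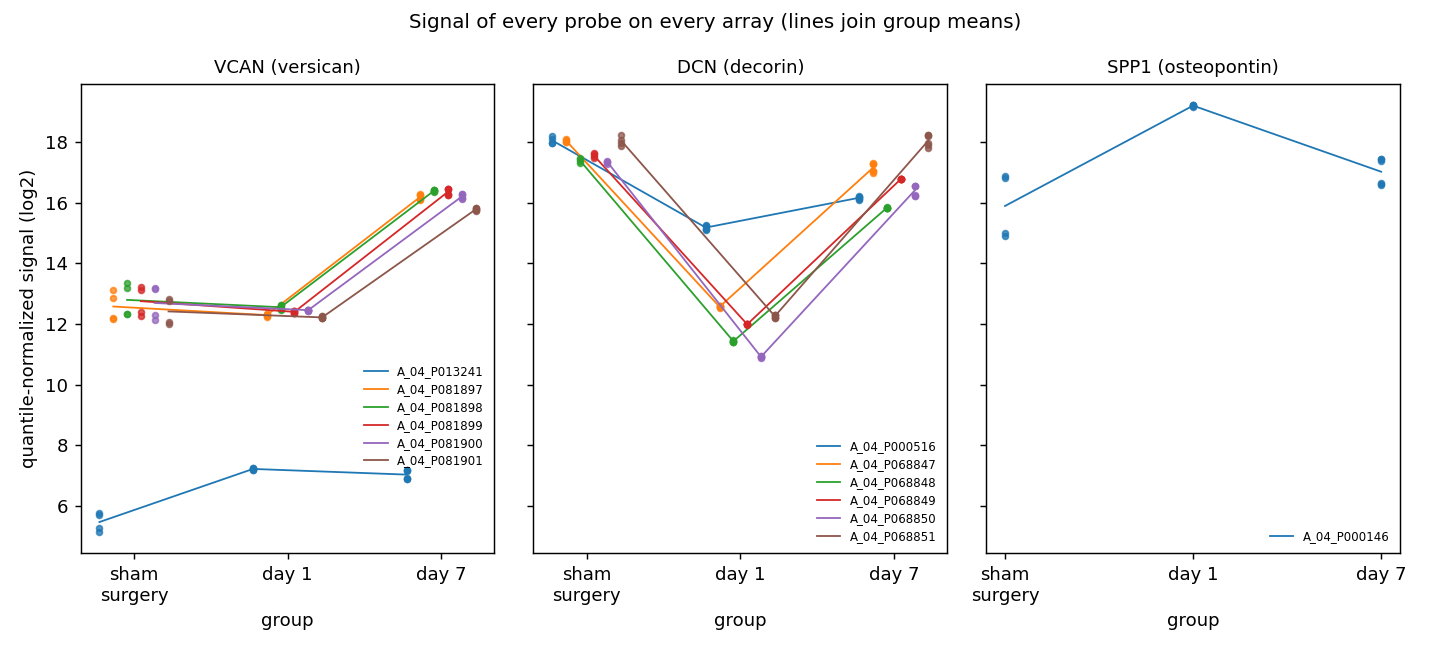
Quantile-normalized log2 signal of each probe on each of the 16 arrays (points), by group, with lines joining the group means of a probe, for VCAN, DCN and SPP1. The 5 bright VCAN probes lie between 12.01 and 13.36 on the sham surgery arrays and between 15.72 and 16.45 on the day 7 arrays, and the DCN probes other than A_04_P000516 dip to between 10.89 and 12.58 on the day 1 arrays.

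Probe A_04_P081898 was the brightest of the VCAN probes. Its log2 signal was 13.36, 13.17, 12.32 and 12.32 in sham surgery samples 1 to 4. On day 1 it was 12.48 and 12.62, and on day 7 it was 16.37 and 16.42. Both day 7 samples lay above all others, whereas the day 1 samples lay inside the sham surgery range. The log2 fold change of day 7 against sham surgery was 3.60 (SE 0.32, limma adjusted p = 8.07e-05), which is 12.2-fold. Day 7 against day 1 gave 3.85 (SE 0.37, limma adjusted p = 0.000123), or 14.4-fold. Day 1 against sham surgery gave -0.24 (SE 0.32, limma adjusted p = 0.518), and this probe was not called.

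The 4 probes next to it behaved alike. For A_04_P081899 the signal was 13.22, 13.13, 12.25 and 12.40 in the sham surgery samples, 12.42 and 12.37 on day 1, and 16.27 and 16.44 on day 7. For A_04_P081901 it was 12.82, 12.74, 12.08 and 12.01, then 12.19 and 12.24, then 15.81 and 15.74. All 5 bright probes were called higher on day 7 against sham surgery, when 17.5% of all probes tested were. They were also called higher against day 1, when 21.1% of all probes were. The log2 fold changes of these 5 ran from 3.36 to 3.62 for day 7 against sham surgery and from 3.56 to 3.96 for day 7 against day 1. For day 1 against sham surgery they ran from -0.35 to -0.20, with limma adjusted p between 0.309 and 0.526.

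The sham surgery pairs differed in VCAN. Samples 1 and 2 averaged 13.26 by A_04_P081898, and samples 3 and 4 averaged 12.32. The day 1 value lay between the pairs, so that its sign against sham surgery depended on which pair was used. Against samples 3 and 4 alone it was 0.23 (limma adjusted p = 0.0354), and against samples 1 and 2 alone it was -0.71 (limma adjusted p = 0.000963). This split, also used below, was chosen after seeing the data. Its p-values rest on the small spread within a pair and between samples of a day, and they do not measure the spread between animals. Day 7 was higher against either pair, by 4.07 and 3.13.

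The sixth VCAN probe, A_04_P013241, followed another course. Its log2 signal was 5.76, 5.70, 5.26 and 5.14 in the sham surgery samples, 7.21 and 7.23 on day 1, and 7.17 and 6.89 on day 7. All graft samples lay above all sham surgery samples. The log2 fold change was 1.75 on day 1 (SE 0.20, limma adjusted p = 0.000174) and 1.56 on day 7 (SE 0.20, limma adjusted p = 0.000505), and day 7 against day 1 gave -0.19 (limma adjusted p = 0.514). All 6 probes carry the same transcript accession. The signal of the sixth probe minus the mean of the other 5 was -7.36 to -6.94 in the sham surgery samples, -5.17 and -5.16 on day 1, and -8.998 and -9.31 on day 7, so that its distance to them was not the same in the groups. Before normalization its signal was 30.2 to 63.7 intensity units in the sham surgery group, 98.3 to 114 on day 1 and 149 to 211 on day 7. With the normexp background correction it was no longer called, at 0.74 on day 1 and 0.67 on day 7.

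DCN was the member with the largest change in size. Probe A_04_P068850 had a log2 signal of 17.35, 17.27, 17.36 and 17.35 in the sham surgery samples. On day 1 it was 10.91 in both samples, and on day 7 it was 16.23 and 16.56. The 3 groups did not overlap, and the order was sham surgery, day 7, day 1. The log2 fold change of day 1 against sham surgery was -6.42 (SE 0.11, limma adjusted p = 8.87e-08), a level 85.6-fold lower. Day 7 was 5.48 above day 1 (SE 0.13, limma adjusted p = 9.92e-07), or 44.6-fold. Against sham surgery, day 7 gave -0.94 (SE 0.11, limma adjusted p = 0.000307), below the fold threshold.

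Probes A_04_P068847 to A_04_P068851 shared the fall and the return. On day 1 they were 44.6- to 85.6-fold below sham surgery, with log2 fold changes between -6.42 and -5.48. From day 1 to day 7 they rose by 4.40 to 5.80. How far they came back differed from probe to probe. Probe A_04_P068851 was at 17.88, 17.98, 18.24 and 18.06 in the sham surgery samples, 12.30 and 12.20 on day 1, and 17.89 and 18.21 on day 7. Its day 7 samples lay inside the sham surgery range, with a log2 fold change of 0.01 (SE 0.14, limma adjusted p = 0.955). Probe A_04_P068848 was at 17.30, 17.37, 17.46 and 17.45, then 11.45 and 11.40, then 15.83 and 15.82. It stayed below sham surgery on day 7, with a log2 fold change of -1.56 (SE 0.09, limma adjusted p = 9.15e-06).

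The brightest DCN probe over all arrays, A_04_P000516, changed less. It was at 17.95, 18.19, 18.09 and 17.98 in the sham surgery samples, 15.24 and 15.11 on day 1, and 16.20 and 16.12 on day 7. The groups did not overlap. Its log2 fold change was -2.87 on day 1 (SE 0.10, limma adjusted p = 7.09e-07) and -1.89 on day 7 (SE 0.10, limma adjusted p = 8.35e-06). The rise from day 1 to day 7 was 0.98 (SE 0.12, limma adjusted p = 0.000371), just under the fold threshold. All 6 DCN probes share 1 RefSeq accession. The signal of this probe minus the mean of the other 5 was 0.26 to 0.56 in the sham surgery samples, 3.39 and 3.30 on day 1, and -0.55 and -0.81 on day 7. The difference between the probes was not tested.

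The level of DCN on day 7 relative to sham surgery depended on the scaling. When each array was scaled to its 75th percentile in place of quantile normalization, A_04_P000516 gave -0.99 and was not called, and A_04_P068848 gave -0.46. Under that scaling the median of all probes moved from 0.12 to 0.47 for day 1 against sham surgery and from -0.03 to -0.35 for day 7 against day 1. The fall of DCN on day 1 was -2.77 by A_04_P000516 under the same scaling. Before normalization the DCN probes other than A_04_P000516 had the higher median signal on day 7. For A_04_P068848 it was 138450 intensity units after sham surgery and 148716 on day 7, and for A_04_P000516 it was 240759 and 192719. Day 7 arrays were also brighter as a whole, with 75th percentiles of 2484 to 2825, against 1326 to 2020 after sham surgery.

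SPP1 had 1 probe, A_04_P000146. Its log2 signal was 16.87, 16.80, 14.89 and 14.99 in the sham surgery samples. On day 1 it was 19.20 in both samples, and on day 7 it was 17.42 and 16.61. Day 1 lay above all other samples, and the second day 7 sample lay below sham surgery samples 1 and 2. Before normalization the signal was 24593 to 97151 intensity units in the sham surgery group, 585958 to 671011 on day 1 and 270973 to 383862 on day 7.

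The log2 fold change of day 1 against sham surgery was 3.31 (SE 0.65, limma adjusted p = 0.00277), or 9.91-fold. On the day 1 arrays the signal ranked 9 to 16 among 43603 probes. Quantile normalization sets a level by its rank, and over all alternatives this log2 fold change ran from 2.36 to 4.65. Day 7 against day 1 gave -2.18 (SE 0.76, limma adjusted p = 0.0392), and this call was lost, with adjusted p between 0.0710 and 0.176, when any 1 of the 4 graft samples was left out. Day 7 against sham surgery gave 1.13 (SE 0.65, limma adjusted p = 0.175). The sham surgery pairs lay apart, with means of 16.83 and 14.94. Against samples 3 and 4 alone day 7 was 2.08 higher (limma adjusted p = 0.000874), and against samples 1 and 2 alone it was 0.18 higher (limma adjusted p = 0.544). These p-values have the same limit as those of this split for VCAN. Day 1 was higher against either pair, by 4.26 and 2.36. Within the 3 scans that held both days, day 7 against day 1 was -2.22, -2.14 and -2.18 for SPP1. It was 3.84, 3.86 and 3.84 for VCAN by A_04_P081898, and 1.02, 0.98 and 0.95 for DCN by A_04_P000516. These scans hold the arrays that were averaged at each position, so their likeness is that of repeats and not of separate samples. Within each scan the days also held different positions.

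**Figure D2:**
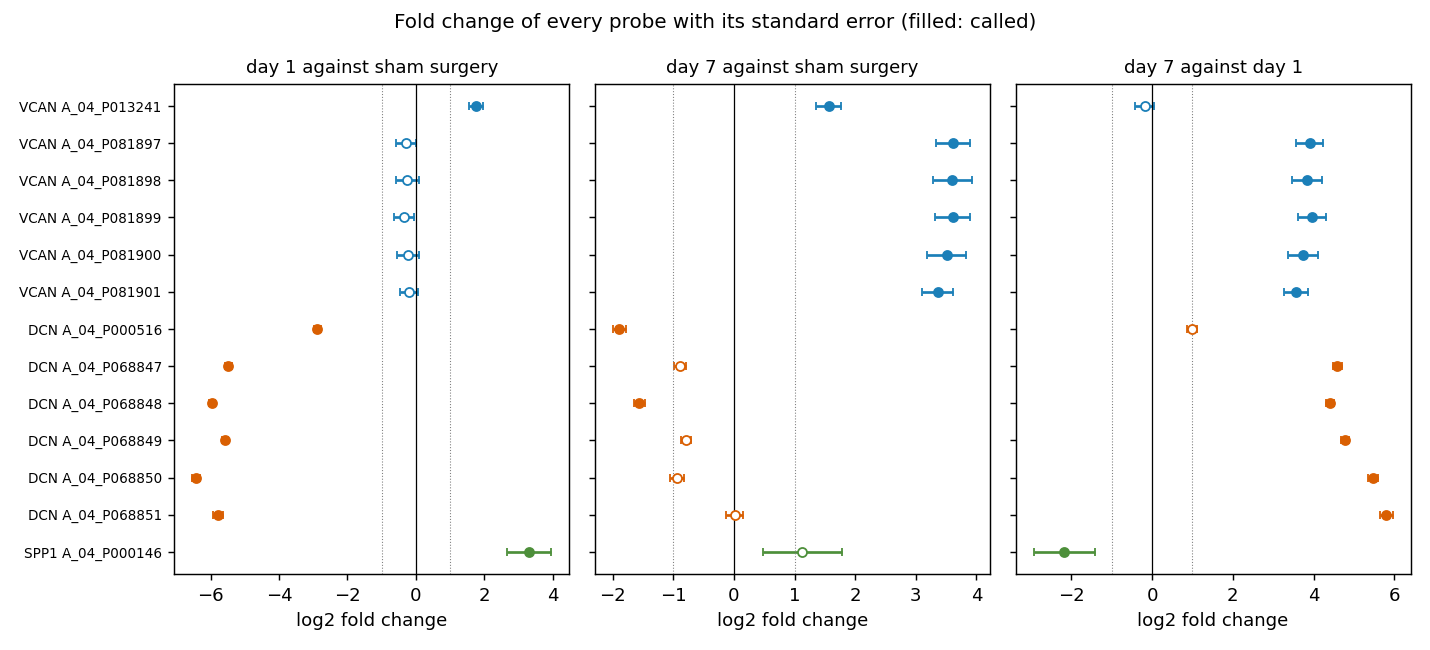
Log2 fold change of each of the 13 probes in the 3 comparisons, with its standard error from limma (filled points were called, dotted lines mark a log2 fold change of 1 in either direction). VCAN A_04_P013241 and DCN A_04_P000516 stand apart from the other probes of their gene, and SPP1 has the widest error, 0.65 against sham surgery.

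On day 1, 8 of the 13 probes were called against sham surgery, when 49.8% of all probes tested were. Of these, 2 were higher (1 of VCAN and that of SPP1), against 25.2% of all probes called higher, and the 6 lower ones were all of DCN, against 24.6% called lower. On day 7, 8 of 13 were called against sham surgery, against 32.9% of all probes. All 6 VCAN probes were higher, against 17.5% of all probes, 2 of 6 DCN probes were lower, against 15.4%, and SPP1 was not called. From day 1 to day 7, 11 of 13 were called, against 39.9%. Of these, 5 VCAN and 5 DCN probes were higher, against 21.1% of all probes, and SPP1 was lower, against 18.8%. Probes of 1 gene are not independent measurements. The median log2 fold change of the 6 VCAN probes on day 7 was 3.56 and that of the 6 DCN probes on day 1 was -5.68, beside 0.04 and 0.12 over all probes tested.

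The courses of the 3 genes were compared over the 8 samples by their brightest probes, which for DCN is A_04_P000516, the probe that stands apart from the other 5. Pearson's r was -0.83 between DCN and SPP1, -0.26 between VCAN and DCN, and 0.04 between VCAN and SPP1. With the other 5 DCN probes, r with VCAN had the opposite sign, at 0.13 to 0.38, and r with SPP1 was -0.89 to -0.85. These correlations describe 3 groups of samples and carry no test. Among 1991 other named genes, CCNB2 (r = 0.994), KNL1 (r = 0.993) and FUT8 (r = 0.991) were most like VCAN. CCNB2 is a mitotic cyclin, KNL1 is a kinetochore protein and FUT8 is a fucosyltransferase. For DCN probe A_04_P000516 these were DDB2, SMARCA1 and MB21D2, each with r = 0.998. On day 7 they were at -2.52, -2.45 and -1.74 against sham surgery, where the other 5 DCN probes lay between -1.56 and 0.01, and with those 5 probes their r was 0.80 to 0.93, 0.75 to 0.90 and 0.76 to 0.90. For SPP1 they were USP15 (r = 0.987), CYP2C14 (r = 0.985) and SLC36A1 (r = 0.974).

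Genes of the same matrix were read from 8 lists, each gene by its brightest probe. Of 40 list genes tested, 12 were higher and 17 lower on day 1 than after sham surgery, when 25.2% and 24.6% of all probes tested were. On day 7, 14 were higher and 10 lower, against 17.5% and 15.4% of all probes. From day 1 to day 7, 19 were higher and 8 lower, against 21.1% and 18.8%. The 12 genes higher on day 1 are close to the share of all probes. The counts of the single lists below stand beside the same shares. The median log2 fold change of the 40 genes was -0.61 on day 1 and 0.12 on day 7 against sham surgery, beside 0.12 and 0.04 over all probes.

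Among 5 other proteoglycan core proteins, 3 were lower and 1 was higher on day 1. Biglycan (BGN), the closest relative of decorin, was at -5.00 on day 1 against sham surgery (SE 0.54) and at 0.31 on day 7 (SE 0.54, limma adjusted p = 0.645). Lumican (LUM), another collagen-binding proteoglycan of the leucine-rich family, was at -3.50 (SE 0.13) and -0.16 (SE 0.13). Osteoglycin (OGN), of the same family, was at -3.42 and remained lower on day 7, at -1.29. All 3 rose from day 1 to day 7, by 5.31, 3.33 and 2.12. Serglycin (SRGN), the proteoglycan of the granules of blood cells, was higher on both days, at 2.48 and 2.23. With the 75th percentile scaling OGN was no longer called on day 7, at -0.52, and against sham surgery samples 3 and 4 alone BGN was called higher on day 7, at 1.13.

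Collagens, to which decorin binds, were lower on day 1 as well. In this list 5 of 6 genes were lower on day 1, and 4 of 6 rose from day 1 to day 7. COL1A2, a chain of type I collagen, was at -2.72 on day 1 (SE 0.10) and at -0.002 on day 7 (SE 0.10), and each of its 11 probes gave the same calls. COL14A1, a fibril-associated collagen, was at -7.99 on day 1 (SE 0.27) and at -1.61 on day 7. COL5A2, a chain of type V collagen, was at -3.18 on day 1 and was higher on day 7, at 1.58. Thrombospondin 1 (THBS1) was lower on both days, at -2.69 and -1.89, although 1 of its 4 probes was called higher on day 1. Fibronectin (FN1) was not called by its brightest probe, at -0.40 and 0.18, but 6 of its 11 probes were called lower on day 1.

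Of 5 genes of hyaluronan synthesis and binding, none was called on day 1 (limma), although the adjusted p was below 0.05 for HAS2, ITIH1 and TNFAIP6. On day 7, 2 were higher and 1 lower. HAS2, the synthase of the polysaccharide that versican binds, was at -0.86 on day 1 (SE 0.29) and at 1.58 on day 7 (SE 0.29, limma adjusted p = 0.00271). TNFAIP6, a hyaluronan-binding protein, was at 0.42 and 2.27 by its brightest probe, and all 7 of its probes were called higher on day 7. ITIH2 was not well above background on any day 7 array, where it was at least 2.06-fold below sham surgery (limma adjusted p = 0.00439). CHPF, an enzyme that extends chondroitin chains and the 1 gene of its list tested, was higher on day 1, at 1.32, and was at 0.76 on day 7. With normexp neither CHPF on day 1 (0.74) nor ITIH2 on day 7 (-0.22) was called. Other settings gave calls on day 1. Against sham surgery samples 1 and 2 alone HAS2 and ITIH2 were called lower, at -1.28 and -1.12, and with the 75th percentile scaling ITIH1 was called higher, at 1.09.

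**Figure D3:**
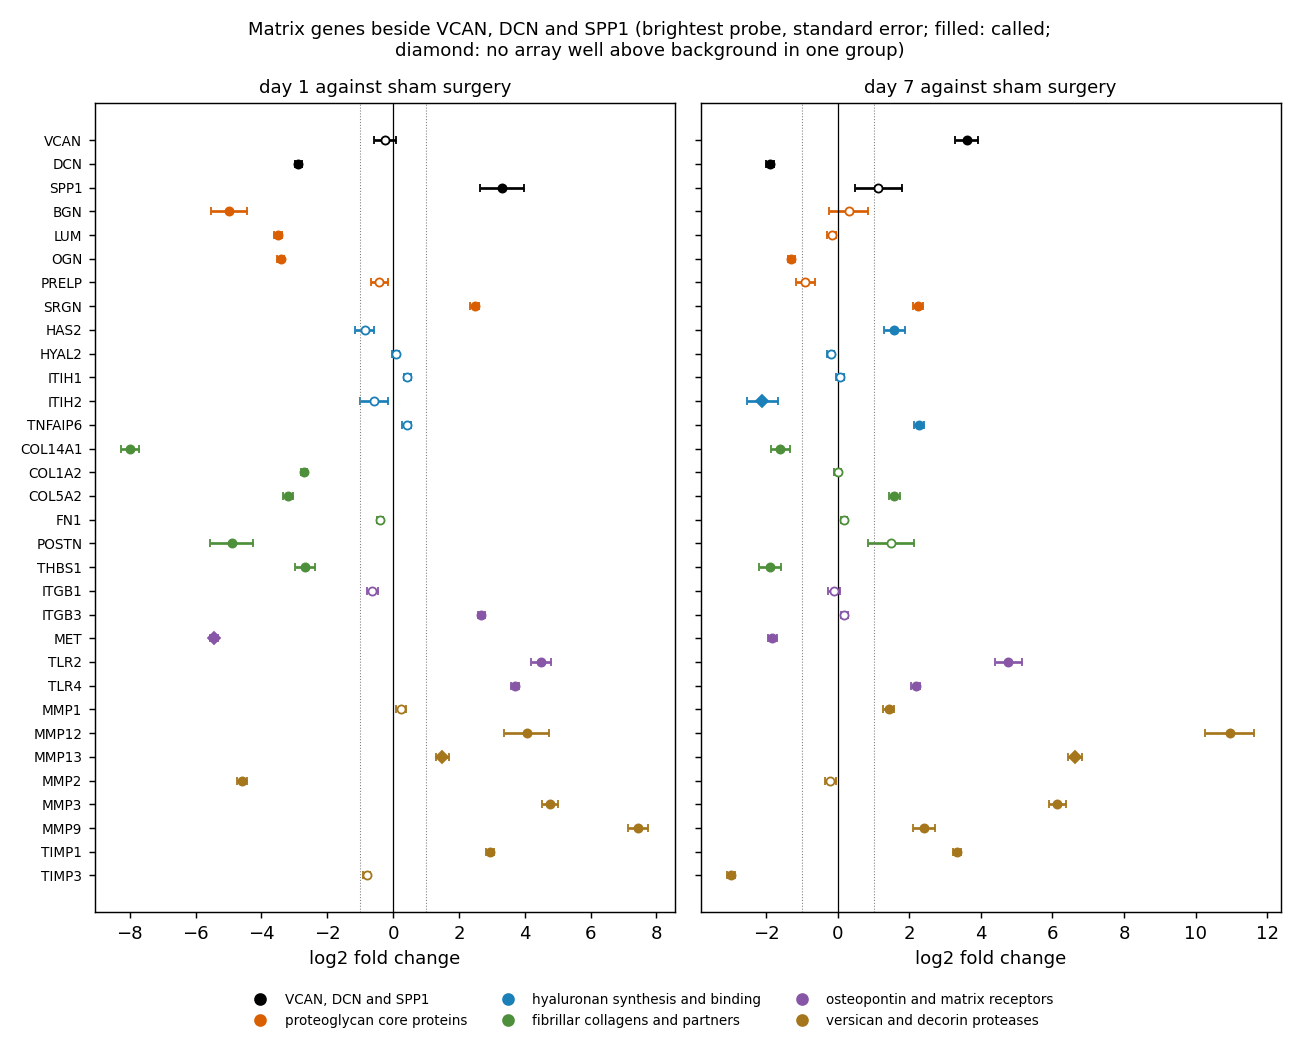
Log2 fold change against sham surgery on day 1 (left) and day 7 (right), with the standard error from limma, for the brightest probe of VCAN, DCN, SPP1 and the genes shown of 5 matrix lists (filled points were called, diamonds mark genes not well above background on any array of 1 or both groups compared, whose position is no measured fold). LUM, BGN and COL1A2 lie left of 0 on day 1, at -3.50, -5.00 and -2.72, and near 0 on day 7, while VCAN moves from -0.24 to 3.60.

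Of 8 genes of proteases and inhibitors that act on versican, decorin or their matrix, 5 were higher and 1 lower on day 1, and 6 were higher and 1 lower on day 7. MMP13, a collagenase and 1 of those called higher on day 1, was not well above background on any array of either group then, so that no fold is given, and with normexp it was not called (limma adjusted p = 0.202). MMP9, a gelatinase that neutrophils store, was at 7.46 on day 1 (SE 0.30) and at 2.40 on day 7. MMP12, the macrophage elastase, was at 4.06 on day 1 (SE 0.69) and at 10.95 on day 7 (SE 0.69, limma adjusted p = 1.47e-05). MMP2, a gelatinase of mesenchymal cells, was lower on day 1, at -4.59, and was at -0.21 on day 7. TIMP3, an inhibitor of metalloproteinases that is bound to the matrix, was at -0.79 on day 1 and was lower on day 7, at -2.99.

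Of 6 receptors of osteopontin and matrix fragments, 4 were higher and 1 lower on day 1. ITGB3, the beta chain of the vitronectin receptor that binds osteopontin, was at 2.69 on day 1 (SE 0.10, limma adjusted p = 7.82e-07) and at 0.18 on day 7 (SE 0.10). Day 7 against day 1 gave -2.51 for ITGB3, beside -2.18 for SPP1. ITGB1, the chain shared by many matrix integrins, was not called, at -0.63 and -0.11. TLR2, a receptor to which versican can bind, was at 4.49 and 4.77, where 1 of the 2 day 7 samples was missing for this probe. MET was not well above background on any day 1 array, where it was at least 10.3-fold below sham surgery (limma adjusted p = 1.37e-07), and on day 7 it was at -1.83, a call that normexp ended (-0.77). F3, the tissue factor that starts the formation of the thrombin that cleaves osteopontin, was lower on day 1, at -2.43, and was at -0.58 on day 7.

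Of 8 genes of the transforming growth factor beta family and of growth factors that decorin or the matrix can bind, 6 were lower on day 1 and 4 on day 7. TGFB3, a ligand, was not well above background on any day 1 array, where it was at least 7.73-fold below sham surgery (limma adjusted p = 1.89e-07), and it was at -0.29 on day 7. BMP2, another ligand of the family, was lower on both days, at -1.82 and -3.92, by all 8 of its probes. TGFBR2, the type II receptor, was not well above background on any day 1 array, where it was at least 1.25-fold below sham surgery (limma adjusted p = 0.000191), and normexp ended this call (-0.14). Normexp also ended the call of FGF2, a growth factor, on day 7 (-1.29, and -0.67 with normexp). TGFBR1, the type I receptor, was the 1 gene of the list that was higher, at 2.94 on day 1 and 2.51 on day 7.

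Markers of the cells of the tissue were read beside the members, and their courses differed from list to list. Of the listed markers, 3 of 9 could be read for smooth muscle (ACTA2, MYH11 and DES), 2 of 8 for fibroblasts (COL1A2 and LUM), 2 of 10 for macrophages and monocytes (CD14 and MSR1) and 4 of 8 for neutrophils (CAMP, CXCR2, S100A8 and S100A9). The lists also held 3 of 9 for endothelium (KDR, NOS3 and THBD), 2 of 6 for adipocytes (ADIPOQ and LEP) and 3 of 9 for lymphocytes (CD3E, CD4 and MS4A1). No marker of erythrocytes could be read. The mean log2 signal of the fibroblast markers, which are also list genes, was 18.38 to 18.50 in the sham surgery samples, 15.32 to 15.36 on day 1 and 18.33 to 18.40 on day 7. DCN fell and rose as well, but most of its probes came back less far. On day 7 against sham surgery COL1A2 and LUM were at -0.002 and -0.16. DCN was at -1.89 by A_04_P000516 and between -1.56 and 0.01 by its other 5 probes. That of the smooth muscle markers was 14.78 to 16.12, then 11.32 to 11.37, then 11.67 to 12.05, where ACTA2 was back at 17.71 on day 7 and MYH11 was at 10.18. That of 3 of 9 markers of dividing cells (CCNB2, CDK1 and MAD2L1) was 9.20 to 10.32, then 10.50, then 13.16 to 13.17, and VCAN was highest on the same day.

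The mean of the macrophage markers was 9.61 to 10.57 in the sham surgery samples, 15.92 to 15.97 on day 1 and 15.67 to 15.80 on day 7. That of the neutrophil markers was 9.65 to 10.43, then 14.87 to 14.91, then 11.80 to 11.92. On day 7 CAMP, S100A8 and S100A9 were called higher than after sham surgery, and CXCR2 was not called, at -0.20. SPP1 was highest on day 1, when both lists were high, and it was lower on day 7. The 2 macrophage markers went opposite ways from day 1 to day 7, with CD14 at -0.89 and MSR1 at 0.48. Neither was called, but with the 75th percentile scaling MSR1 was called higher, at 1.21. Within the sham surgery group, samples 1 and 2, with the higher SPP1 and VCAN, had the higher smooth muscle mean (16.12 and 16.11, against 14.78 and 14.80) and the higher mean of dividing cell markers (10.32 and 10.21, against 9.30 and 9.20). They had the lower macrophage mean (9.66 and 9.61, against 10.47 and 10.57) and the lower neutrophil mean (9.65 and 9.76, against 10.43 and 10.40). The neutrophil markers did not vary alike over the sham surgery samples. The SD there was 0.87 for S100A8 and 0.82 for S100A9, but 0.13 for CAMP and 0.11 for CXCR2. The endothelial mean was 8.81 to 8.93 in the sham surgery samples, 7.46 to 7.68 on day 1 and 6.30 to 6.63 on day 7, with KDR not well above background on any graft array. The adipocyte mean was 6.88 to 7.76, then 3.99 to 4.06, then 4.80 to 4.86. In it ADIPOQ was not well above background on any day 1 array, where it was at least 53.3-fold below sham surgery (limma adjusted p = 1.25e-05). LEP was not called and went the other way on day 1, at 0.44, and was at -0.52 on day 7. The low adipocyte mean of day 1 thus came from ADIPOQ alone and is no measured level. The lymphocyte mean was 4.97 to 5.17, then 6.75 to 6.99, then 5.71 to 5.80, but its genes followed different courses. Against sham surgery CD4 and MS4A1 were called higher on day 1 (2.63 and 2.28) and not on day 7 (-0.12 and 0.39). CD3E was not called on day 1 (0.52) and was called higher on day 7 (1.81), a call that normexp ended (0.63). DCN was lowest on day 1, when ADIPOQ was lowest as well and LEP was not. The part of these cells in the results for VCAN, DCN and SPP1 was not tested.

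**Figure D4:**
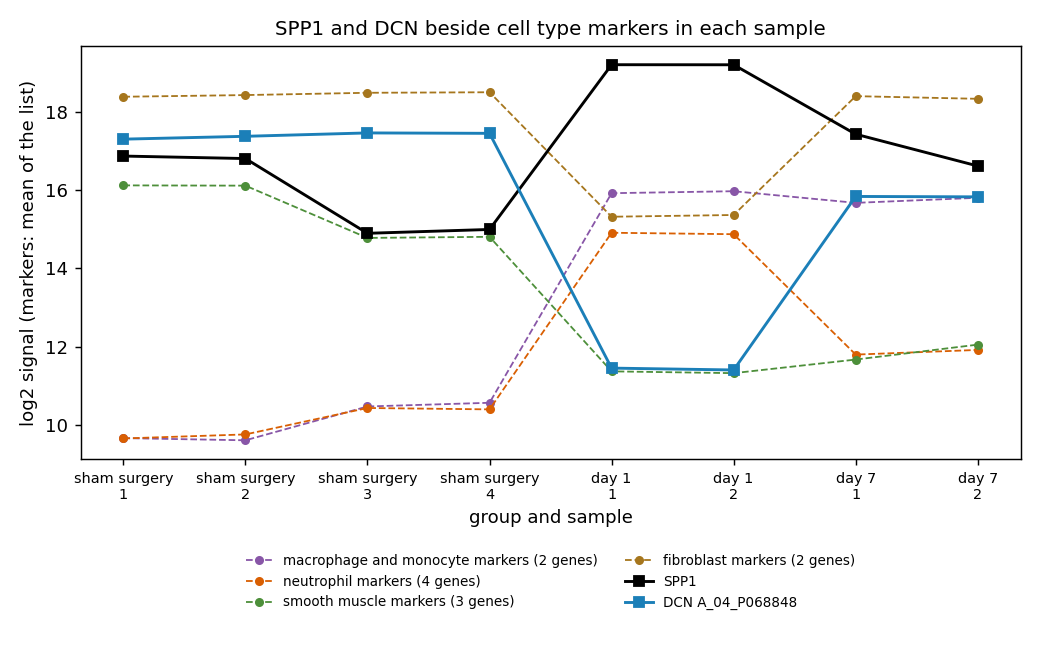
Log2 signal of SPP1 and of DCN probe A_04_P068848 in each of the 8 samples (squares), with the mean log2 signal of the markers of 4 cell types (circles). DCN dips with the fibroblast markers on day 1, and SPP1 is at 19.20 in both day 1 samples, where the neutrophil mean is 14.91 and 14.87. Heights of different genes cannot be compared.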

How the data were processed

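Gene expression was measured with Agilent rabbit one-colour arrays. Per spot, the authors deposited the signal intensity after background subtraction by the scanner software (Agilent Feature Extraction 11.0.1.1 in the file headers, 9.1 in the submitters' processing notes) with its quality calls. They also deposited log2 values of 33670 probes, quantile-normalized in GeneSpring and filtered, which served as an alternative.

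Control spots were removed, and spots called non-uniform or outlying were set to missing. The log2 signals were quantile-normalized, and spots of 1 probe were averaged. Names came from RefSeq accessions, read against the RefSeq annotation of assembly mOryCun1.1 (3368 probes, DCN and SPP1 among them) and from the gene identifiers paired with transcripts in the part of the authors' supplement that could be read (2810 probes, VCAN among them). Probes without a name could include further probes of these genes. No coordinates or sequences are given. Samples were grouped by the labels. One limma model with the 3 groups was fitted to the 8 samples (lmFit and eBayes), with two-sided p-values adjusted over 35761 probes.

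Named genes were all probes of VCAN, DCN and SPP1, certain matrix genes listed by name, and, per list, the largest rise and fall among called genes in each comparison with sham surgery, and the 3 genes most correlated with each member. A gene that this rule names is not reported here. The members, lists and tests were chosen with earlier results of these data known. Genes not well above background on any array of a group got a lower bound, the mean of the brighter group over the lowest signal well above background on the arrays of the other group. The procedure was tested on simulated data.

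Alternatives were all 16 arrays as separate samples, sham arrays averaged in pairs, the authors' values, scaling to the 75th percentile, normexp (offset 50), 2 other filters, 1 probe a gene, the compared groups only, rejected spots kept, the replicate number or scan as a block, and each sample left out. R 4.3.3, limma 3.58.1, version 1.17.8 of data.table, Python 3.11.15, matplotlib 3.10.9 and pandas 2.3.3 were used.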

Additional observations from a re-analysis of the deposited data

Results flagged for a closer look

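The effects of the day 1 and the day 7 grafts against sham surgery differed from each other for 11 of the 13 probes. This is by the contrast of day 7 against day 1 itself, in which 39.9% of all probes tested were called. The 13 probes belong to 3 genes and are not independent. For VCAN the difference was 3.90, 3.85, 3.96, 3.75 and 3.56 on the log2 scale by A_04_P081897 to A_04_P081901. For DCN it was 4.59, 4.40, 4.79, 5.48 and 5.80 by A_04_P068847 to A_04_P068851, while A_04_P000516 gave 0.98, under the fold threshold. For SPP1 it was -2.18 by A_04_P000146, the call that was lost without any 1 graft sample. Both effects are measured against the same 4 sham surgery samples. For VCAN by A_04_P081898, day 7 was called against sham surgery (3.60) and day 1 was not (-0.24). For SPP1, day 1 was called (3.31) and day 7 was not (1.13).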

How the results depend on the processing

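VCAN kept its calls for day 7 against sham surgery (3.13 to 4.43) and day 7 against day 1 (3.77 to 4.48), DCN for day 1 against sham surgery (-2.95 to -2.77) and SPP1 for day 1 against sham surgery (2.36 to 4.65) under all alternatives, each by its brightest probe. SPP1 on day 7 against sham surgery was called with the 75th percentile (2.22) and without sham arrays 1 and 2 (2.08). It was also called with all 16 arrays as separate samples (1.13, limma adjusted p = 0.00922) and with the scan as a random block (1.13, limma adjusted p = 3.2e-05). Fits to 16 arrays count as separate samples the arrays that were otherwise averaged, so their p-values do not measure the spread between samples. Over all alternatives the limma adjusted p of this comparison ran from 3.2e-05 to 0.544. SPP1 on day 7 against day 1 lost its call with normexp (-1.998, adjusted p = 0.0538) and when any graft sample was left out (-2.59 to -1.77). DCN on day 7 lost its call with the 75th percentile (-0.99). DCN on day 7 against day 1 passed the fold threshold with the 75th percentile (1.78), normexp (1.03), within scan 1 (1.02), and without day 1 sample 1 or day 7 sample 2, in a range of 0.92 to 1.05 over the samples left out. Leaving out arrays by sham pair was chosen after seeing the data.

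Signs turned for probes that had not been called. Without sham arrays 1 and 2, VCAN on day 1 against sham surgery was 0.23, and A_04_P081897, A_04_P081899, A_04_P081900 and A_04_P081901 gave 0.12, 0.071, 0.23 and 0.17. DCN on day 7 against sham surgery gave 0.29 by A_04_P068849 and 0.25 by A_04_P068850 with the 75th percentile. A_04_P068851 gave -0.10 without sham arrays 1 and 2, and -0.15 to 0.17 over the samples left out. The cause was not tested.

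Replicate numbers did not pair the samples, since arrays with the same number correlated at -0.01 to 0.05 in their deviations. With the replicate number as a block over 16 arrays, SPP1 on day 7 against sham surgery was called (1.12, adjusted p = 0.0197), as it was for 16 arrays without the block. Both fits count the averaged arrays as separate samples. With the block, the counts of all probes called were 12336, 18306 and 15223 for day 7 and day 1 against sham surgery and for day 7 against day 1.

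Of all probes, 11756, 17815 and 14279 were called in these comparisons, 6901, 10430 and 7296 with normexp, and 6031, 9827 and 8019 with 1 probe a gene. With the 75th percentile the share of higher calls moved from 50.6% to 64.0% for day 1 against sham surgery and from 52.8% to 34.1% for day 7 against day 1. The number of samples, 2 of each day, limits the precision.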
